A study of Homo sapiens with 24 samples.

Results

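Labelled mRNA was compared with unlabelled mRNA of the same gene at 4 h of a uridine chase in 2 lines of HEK293, a cell line from human embryonic kidney. The comparison used 6 of the 24 libraries of the series, chosen by their labelled line and chase time: 3 of the control line, which carries a Flag/HA construct, and 3 of ZC3H7B-OE, a line that overexpresses the CCCH-type zinc finger protein ZC3H7B. Both lines received 100 µM 4-thiouridine (s4U) together with 1 µg/mL doxycycline for 24 h and were then washed and given 10 mM uridine. Uninduced cells were not analysed here, so differences that preceded doxycycline and differences that followed it cannot be told apart. The labels name the libraries replicates without stating separate cultures or clones, so a p-value here reflects spread among these libraries alone, and that spread may be technical. The series is about codons and how ZC3H7A and ZC3H7B affect translation and stability of mRNA.

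In catabolic SLAM-seq, cells build s4U into RNA made during a pulse, and alkylation of the extracted RNA makes the modified base read as C, so that a read with T>C conversions comes from RNA made before the chase. As old mRNA is degraded and new mRNA replaces it, the labelled share of a gene's reads falls. The odds of a gene, its labelled reads divided by its unlabelled reads, therefore hold both the loss of old mRNA and the arrival of new mRNA, and they do not change when all reads of a gene rise or fall together. Codons that end in G or C and codons that end in A or T are known to mark human mRNAs of different stability, and the share of codons with G or C at the third position is called GC3.

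Depth at 4 h was 2480380 to 3161866 reads a library. The labelled share was 47.2%, 47.3% and 48.6% in the control libraries and 46.1%, 45.4% and 45.1% in ZC3H7B-OE. All 3 ZC3H7B-OE libraries lay below all 3 control libraries, with means of 47.7% ± 0.759 (SD, n = 3) and 45.5% ± 0.521, a difference of -2.18 percentage points or -0.13 on the log2 odds scale. A two-sided exact permutation test gave p = 0.1, the smallest that 3 against 3 libraries allow. On the log2 odds scale the same difference was -0.155 at 0 h, where the lines overlapped, -0.295 at 2 h and -0.0199 at 6 h. A mean difference of like size was thus already seen when the chase began. Replicates of 1 line differed in their read counts by 2.74 to 7.02 chi-square units per degree of freedom, so no pair agreed within sampling noise, where 1 is the level of counting noise. Of 12 HEK293 markers in the table, 6 had at least 10 reads in each library and NEFM was at 0. The 10 fibroblast markers summed to 0.381 to 3.53 CPM, with COL1A2, DCN, PDGFRA, FAP and POSTN at 0. The 10 leukocyte markers summed to 48.9 to 59.9 CPM in control and 67.9 to 95.2 in ZC3H7B-OE, with PTPRC, CD3E, LYZ and TYROBP at 0, and the 10 epithelial markers to 233 to 269 and 223 to 295, with KRT5, KRT14 and GRHL2 at 0.

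ZC3H7B itself had far lower labelled odds in the line that overexpresses it. Labelled reads made up 65.8%, 60.6% and 65.0% of ZC3H7B reads in control and 38.4%, 33.7% and 32.9% in ZC3H7B-OE. The lines did not overlap, and the odds differed by a log2 of -1.71 (SE 0.14, edgeR adjusted p = 1.06e-30, from 1867 and 2407 reads). In CPM, reads scaled to the total of the library, its unlabelled reads averaged 82.0 ± 10.1 (SD, n = 3) for control and 192 ± 13.5 for ZC3H7B-OE, and its labelled reads 144 ± 13.4 and 104 ± 7.15. All reads of the gene were 206, 227 and 246 CPM in control and 291, 290.2 and 307 in ZC3H7B-OE, so its level was higher in the line labelled as overexpressing it. ZC3H7A, the paralog, had labelled shares of 28.5%, 30.5% and 30.1% in control and 31.2%, 28.7% and 21.3% in ZC3H7B-OE, which overlapped (log2 odds -0.19, SE 0.27, edgeR adjusted p = 0.742, and 0.01 without ZC3H7B-OE replicate 3).

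Across the transcriptome more genes had lower than higher labelled odds in ZC3H7B-OE. Below, "fell" and "rose" mean that a gene's labelled odds were lower or higher in ZC3H7B-OE than in control with an edgeR adjusted p under 0.05. Of 7804 genes with enough reads of both kinds, 805 fell (10.3%) and 113 rose (1.45%), 918 (11.8%) in all. The median log2 odds ratio over all genes tested was -0.16. At 0 h the median over the genes tested at both times was -0.17, so this overall shift was not particular to 4 h. Genes that fell had a median of -0.65, with 151 at a size of 1 or more, and their median labelled share went from 50.6% in control to 38.3% in ZC3H7B-OE. Genes that rose had a median of 0.59, with 22 at a size of 1 or more, and a median share of 43.3% and 53.1%. The shares of the 2 lines did not overlap in 756 of the genes that fell and in 100 of those that rose, against 1613 (20.7%) lower and 442 (5.66%) higher among all genes tested. Calls also depended on depth. Of 5 groups of genes of equal size by reads, that with the fewest had 0.769% that fell and 0.256% that rose. The group with the most reads had 31.1% and 3.78%. The shares called in the lists below were not matched for depth.

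The balance of the directions depended on the zero of the scale. These counts take the odds as counted. With labelled and unlabelled reads each scaled to their own total, so that a gene is set against its library's overall odds, 472 fell (6.05%) and 233 rose (2.99%). With TMM scaling of the 2 kinds of read added, 232 fell (2.97%) and 481 rose (6.16%), and the median over all genes moved from -0.16 to 0.12. With odds set against those of genes of like GC3, 313 fell (4.01%) and 164 rose (2.1%). A GC3 value was at hand for 7371 of the 7804 genes, and those without one were set against each other as a separate group. The share that rose was thus 12.3% of calls as counted, 33.0% relative to the library total, 67.5% with TMM and 34.4% within GC3 groups. Of 35 gene lists, the median changed sign in 8 relative to the library total, 27 with TMM and 17 within GC3 groups, so a list's median below is read only against that of all genes tested on the same scale. TMM shifted the genes upwards by nearly the same amount. It followed from this shift, and is no check on the calls, that all 232 genes that fell under TMM were among the 805. For the same reason all 113 that rose as counted also rose under TMM. Without control replicates 1 and 2, 63 and 70 genes rose, 49 and 63 of them among the 113. Without ZC3H7B-OE replicates 1 and 3, 67 and 75 rose, 60 and 65 of them among the 113. Of the 85 genes with a call that are named for their place in the order or in a list or for a change over time, 53 were still called in the same direction with TMM, 46 within GC3 groups (1 turned), 52 in a fit of all 24 libraries and 56 with DESeq2.

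Fewer labelled reads were the more common part of a fall. Labelled and unlabelled reads were each set in CPM against all reads of the library, with TMM scaling of all reads. These parts share their reads with the odds, so they are a description and were not tested. Of the 805 genes that fell, 749 had fewer labelled reads in ZC3H7B-OE and 368 had more unlabelled reads. Both held in 312 genes, while 437 had less of both kinds and 56 more of both. The median log2 difference was -0.76 for labelled and -0.04 for unlabelled reads, beside -0.04 and 0.07 over all genes tested. Of the 113 genes that rose, 107 had more labelled reads, 64 of them with fewer unlabelled reads and 43 with more. In bulk RNA, fewer cells that hold an mRNA and less of it in each cell cannot be told apart.

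**Figure D1:**
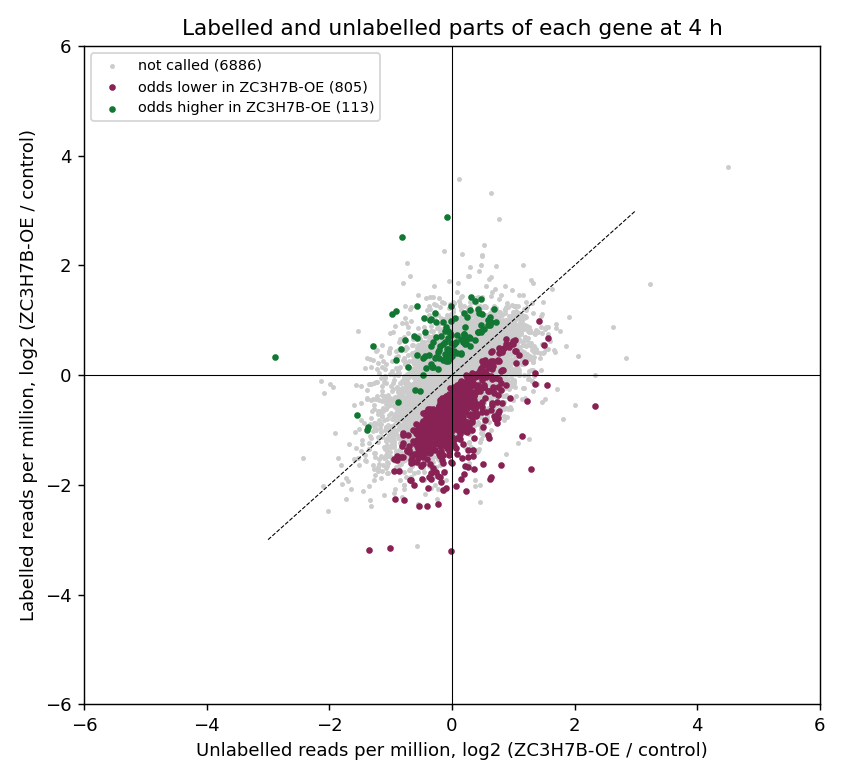
Each point is a gene tested at 4 h, with the log2 ratio of its unlabelled CPM between ZC3H7B-OE and control on the x axis and that of its labelled reads on the y axis; the dashed line marks equal ratios. The 805 genes that fell lie below the dashed line, 749 of them below 0 on the y axis, and the 113 that rose lie above it.

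The lowest odds were found in genes of diverse functions, most of them with few reads. The 12 lowest with at least 100 reads in each line and shares that did not overlap ran from a log2 of -2.31 to -1.73. SH3D19, an SH3-domain adaptor, was the lowest of them (log2 odds -2.31, SE 0.76, edgeR adjusted p = 0.0217), with shares of 27.7%, 15.7% and 16.7% in control and 5.41%, 6.12% and 2.27% in ZC3H7B-OE. Its share did not fall steadily over the chase, with control means of 63.0% at 0 h, 3.32% at 2 h and 33.2% at 6 h. The ZC3H7B-OE mean at 2 h was 5.48%. At 6 h the difference of SH3D19 was not called (log2 odds -1.27, edgeR adjusted p = 0.404). DMD, which encodes dystrophin, had shares of 68%, 73.3% and 46.1% in control and 20.8%, 32.0% and 30.6% in ZC3H7B-OE. SLC25A24, a mitochondrial carrier of ATP-Mg and phosphate, had 67.0%, 77.2% and 56.3% against 29.5%, 41.5% and 19.2%. In each of these genes the highest ZC3H7B-OE library was below the lowest control library. XPR1, the phosphate exporter, went from 67.0%, 56.5% and 69.6% to 46.9%, 32.8% and 26.6% (log2 odds -1.73). CD302, a C-type lectin receptor, went from 34.3%, 28.3% and 28.3% to 12.4%, 7.23% and 14.1% (log2 odds -1.80), with less of both kinds of read. B3GAT2, a glucuronosyltransferase, had the most reads of the 12, 1771 and 1584, and a very low share in both lines: 2.85%, 6.02% and 3.23% in control and 0.965%, 0.915% and 1.33% in ZC3H7B-OE. Its unlabelled reads hardly differed, at 205 ± 1.35 and 192 ± 19.9 CPM, while its labelled reads were 8.68 ± 3.95 and 2.09 ± 0.552. B3GAT2 was little labelled at 0 h already, at 9.54%, 13.7% and 13.2% in control and 5.39%, 3.10% and 3.77% in ZC3H7B-OE. The lines thus differed when the chase began (log2 odds -1.68, edgeR adjusted p = 0.0446). The change of that difference to 4 h was not called (-0.22, edgeR adjusted p = 0.928).

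The other genes of the lowest 12 were TMEM128 (log2 odds -2.02), SNAPC1 (-1.94), a subunit of the small nuclear RNA activating complex, CGRRF1 (-1.90), RGS17 (-1.78), a regulator of G protein signalling, ZHX1 (-1.77), a zinc finger and homeobox repressor, and CLN3 (ENSG00000188603, -1.75), a lysosomal membrane protein. CLN3 stood apart in its parts: its unlabelled reads were higher by a log2 of 1.55 and its labelled reads differed by -0.19, from 135 and 155 reads. RGS17 had less of both, with log2 differences of -3.19 for labelled and -1.35 for unlabelled reads. Under TMM scaling SH3D19 (edgeR adjusted p = 0.0623), CGRRF1 (0.112), RGS17 (0.0844) and CLN3 (0.0932) were no longer called. Within GC3 groups the same 4 and also SNAPC1 (edgeR adjusted p = 0.054) and ZHX1 (0.0722) were not called. The calls of CGRRF1 and CLN3 were each lost in 5 of the 6 fits that left out 1 library, with edgeR adjusted p up to 0.172 and 0.171, that of RGS17 in 3 (up to 0.191), and those of SH3D19 (0.152) and ZHX1 (0.103) in 2. In the libraries of 6 h CLN3 (log2 odds 0.50), CGRRF1 (0.43) and ZHX1 (0.30) had the other sign, none of them called. The rest of the 12 kept theirs.

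Genes with the highest odds had more labelled and fewer unlabelled reads. In all 12 with the highest log2 odds under the same rule, from 1.24 to 2.74, the unlabelled reads were lower and the labelled reads higher in ZC3H7B-OE. The odds are made of these same reads, so choosing genes by their odds favours this pattern. CENPBD1 had the most reads, 842 and 926. Its shares were 24.0%, 24.8% and 28.6% in control and 46.3%, 49.5% and 39.6% in ZC3H7B-OE (log2 odds 1.24, SE 0.22, edgeR adjusted p = 1.3e-06), and its labelled reads rose from 26.1 ± 2.03 to 51.2 ± 4.30 CPM. PEX6, an ATPase of peroxisome biogenesis, had 24.2%, 45.5% and 43.8% against 65.2%, 55.7% and 67.8% (log2 odds 1.48). RWDD2B was labelled for the most part in both lines, at 72.3%, 80.4% and 83.3% and at 90.2%, 89.3% and 91.5% (1.38). None of these 3 genes overlapped between the lines, as the rule for naming them required. Each was also called within GC3 groups and, like all genes that rose as counted, under TMM.

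The other genes that rose most were RPP25L (log2 odds 1.81), related to a subunit of RNase P, FAM69B (1.77), SPRYD4 (1.55), LRRC20 (1.39), the kinase TAOK2 (1.34), RND1 (1.32), CBY1 (1.26), which binds beta-catenin, and the cadherin CELSR2 (1.25). MTSS1, an actin- and membrane-binding protein, had the highest fitted value (2.74, SE 1.01), but it rested on 2 labelled of 172 reads in control, 1.16% (exact 95% binomial interval 0.141% to 4.14%), and 14 of 168 in ZC3H7B-OE, 8.33% (4.63% to 13.6%). These intervals cover counting error only, because PCR copies without molecular identifiers are counted as if independent. In the libraries of 6 h MTSS1 had the other sign and was not called (log2 odds -0.97, edgeR adjusted p = 0.439). The calls of MTSS1 and TAOK2 were lost in 5 of the 6 fits that left out 1 library (edgeR adjusted p up to 0.133 and 0.189), that of CELSR2 in 4 (0.118), and those of LRRC20 (0.18) and SPRYD4 (0.133) in 3. LRRC20 was also not called within GC3 groups (edgeR adjusted p = 0.0506). CBY1 (0.115), RPP25L (0.0805) and RWDD2B (0.17) lost theirs in 2, and FAM69B (0.0865) and RND1 (0.0814) in 1.

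**Figure D2:**
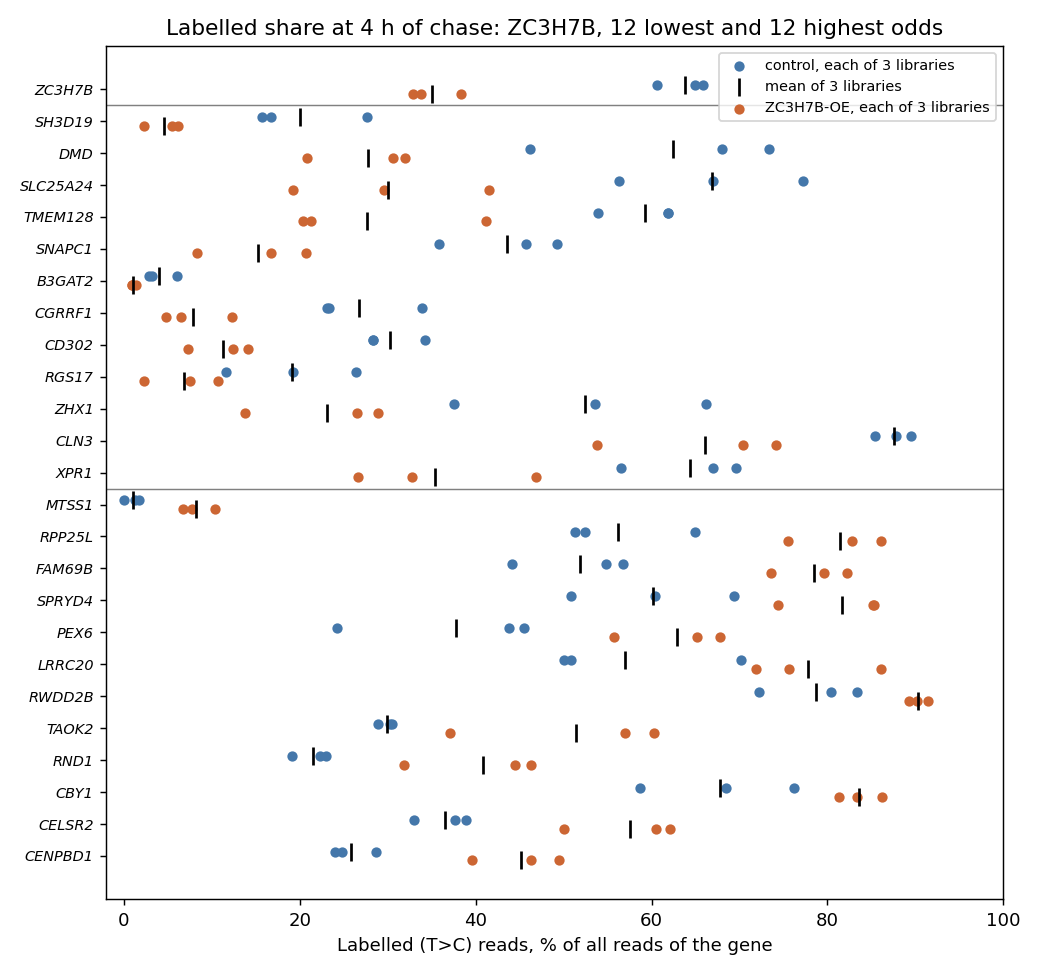
Labelled reads as a percentage of all reads of a gene at 4 h (x axis) are plotted for ZC3H7B, the 12 genes with the lowest and the 12 with the highest log2 odds ratio, with 1 point per library and a bar at the mean of 3. The points of the 2 lines do not overlap in any of these genes, which the rule for naming the 24 required; the points of ZC3H7B lie at 60.6% to 65.8% in control and 32.9% to 38.4% in ZC3H7B-OE.

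With the most reads, differences of smaller size were well resolved. PTPLAD1, a dehydratase of very long chain fatty acid synthesis, had the smallest adjusted p among the genes named (8.37e-32, edgeR), with shares of 66.3%, 64.5% and 67.8% in control and 51.1%, 50.2% and 50.5% in ZC3H7B-OE (log2 odds -0.94, SE 0.07). CBX5, the heterochromatin protein HP1 alpha, had 50.6%, 47.8% and 52.1% against 39.8%, 32.6% and 34.5% (-0.86, SE 0.07). In both, the lines were separated by more than the range within either line. Their parts differed: labelled CBX5 reads went from 996 ± 92.8 to 456 ± 71.8 CPM and unlabelled reads from 996 ± 158 to 821 ± 12.9, while unlabelled PTPLAD1 reads were 482 ± 14.9 and 516 ± 25.6.

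Lipid synthesis genes fell where they were called, as did 805 of the 918 genes called in all. Of 19 tested genes of cholesterol and fatty acid synthesis, 4 fell (21.1%) and 0 rose, with a median log2 odds ratio of -0.41 (-0.25 without ZC3H7B-OE replicate 1), beside -0.16 over all genes tested. SCD, the desaturase that makes monounsaturated fatty acids, had labelled shares of 73.8%, 73.0% and 73.6% in control and 58.8%, 59.8% and 57.1% in ZC3H7B-OE (log2 odds -0.97, SE 0.08, edgeR adjusted p = 1.52e-29). The 2 lines were tight and far apart, and labelled SCD reads went from 984 ± 50.2 to 414 ± 18.4 CPM while unlabelled reads were 355 ± 21.8 and 293 ± 16.7. CYP51A1, a demethylase of cholesterol synthesis, was at -0.90 (SE 0.22). Under TMM scaling both were still called, 2 of the list fell and 1 rose, but within GC3 groups CYP51A1 was not called (-0.52, edgeR adjusted p = 0.145). In all lists where 0 members rose, DESeq2 and limma also called 0 higher; the number at an unadjusted p under 0.05 is given with each such list, and was 0 for lipid synthesis.

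Among RNA-processing genes, SR proteins and hnRNPs, which bind pre-mRNA and guide splicing, had 11 of 35 tested members that fell (31.4%) and 0 that rose (0 at an unadjusted p under 0.05), with a median of -0.22. This share was not matched for depth, and 31.1% fell in the group of all genes tested with the most reads. SRSF1 had shares of 51.5%, 52.3% and 55.4% in control and 44.7%, 44.0% and 43.1% in ZC3H7B-OE (log2 odds -0.53, SE 0.07), without overlap. HNRNPDL was at -0.74 (SE 0.13), with 49.9%, 53.5% and 51.6% against 41.9%, 39.9% and 35.2%. The other members that fell, named after their values were seen, were SRSF2, SRSF7, SRSF10, TRA2B, HNRNPA1, HNRNPA3, HNRNPC, HNRNPH3 and PTBP2, from -0.25 for HNRNPA1 to -1.52 for PTBP2. The direction of the list turned with the scale: with TMM 3 fell and 5 rose and its median was 0.05, and within GC3 groups 4 fell and 1 rose. HNRNPA1 was then at 0.02 with TMM and 0.13 within GC3 groups.

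Translation genes showed calls in both directions. Of 32 initiation and elongation factors, 7 fell and 1 rose, with a median of -0.14 that is close to that of all genes. EIF1AX, an initiation factor of start-codon selection, had shares of 52.99%, 56.4% and 54.9% against 44.6%, 43.5% and 38.0% (log2 odds -0.73, SE 0.10), and ETF1, the release factor eRF1, was at -0.47 (SE 0.08). The 1 member that rose, named after its values were seen, was EIF2B1, a subunit of the exchange factor of eIF2, at 0.42. Of 17 aminoacyl-tRNA synthetase genes 2 fell and 0 rose (0 at an unadjusted p under 0.05): IARS at -0.76 (SE 0.19) and AIMP1, a scaffold of the synthetase complex, at -0.85 (SE 0.23), neither of them called with TMM. The call of each was lost in 1 fit that left out a library.

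Ribosomal protein genes differed little in odds while both of their parts were higher. Of 57 cytosolic ribosomal protein genes 5 fell (8.77%) and 0 rose (0 at an unadjusted p under 0.05), a share near that of all genes, and the median was -0.12. Their median log2 difference was 0.50 for labelled and 0.63 for unlabelled reads. RPL37 had shares of 39.4%, 38.6% and 41.8% against 36.2%, 31.9% and 32.6% (log2 odds -0.39, SE 0.07) and RPS15A was at -0.40 (SE 0.10); with TMM neither was called and 4 members rose. Of 58 mitochondrial ribosomal protein genes 3 fell and 1 rose, with MRPS10 at -0.71 (SE 0.19) and MRPL15 at -1.68 (SE 0.49, from 198 and 135 reads, lost in 2 fits without 1 library, adjusted p up to 0.1). Ribosome biogenesis had 3 of 31 members that rose (9.68%, beside 1.45% of all genes) and 1 that fell. MRTO4, a factor of 60S assembly, had shares of 63.5%, 59.0% and 62.8% in control and 73.1%, 67.1% and 69.9% in ZC3H7B-OE (log2 odds 0.54, SE 0.11), and DDX21, a nucleolar helicase, fell (-0.36, SE 0.07), a call that was lost with TMM. The other 2 that rose, named after their values were seen, were BYSL (0.95), of 40S assembly, and POLR1A (0.52), the largest subunit of RNA polymerase I.

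Metabolic genes called on the odds as counted fell, as did 805 of the 918 genes called in all. Of 13 glycolytic enzymes 4 fell (30.8%, not matched for depth) and 0 rose (0 at an unadjusted p under 0.05), with a median of -0.22. PKM, pyruvate kinase, had the most reads of any gene named from a list, 25269 and 31361. Its shares were 59.0%, 56.9% and 56.5% in control and 51.6%, 47.0% and 50.6% in ZC3H7B-OE (log2 odds -0.45, SE 0.06). In PKM and in enolase ENO1 (-0.36, SE 0.07) it was the unlabelled part that differed more: PKM held 1752 ± 99.9 and 1920 ± 85.0 labelled but 1300 ± 121 and 1944 ± 175 unlabelled CPM. PKM was called under all scalings, ENO1 not with TMM (edgeR adjusted p = 0.479). Of 23 genes of respiratory complex I 2 fell (8.7%, near the 10.3% of all genes) and 0 rose (0 at an unadjusted p under 0.05), NDUFS1 at -0.82 and NDUFA5 at -0.51, and of 28 of complexes II to V 3 fell (10.7%) and 0 rose (1 at an unadjusted p under 0.05), among them UQCRB at -0.68 and ATP5G3 at -0.74. NDUFA5 lost its call in 3 and ATP5G3 in 4 of the 6 fits without 1 library (edgeR adjusted p up to 0.132 and 0.114). Of 9 genes of nucleotide salvage and pyrimidine synthesis 0 were called (2 lower and 1 higher at an unadjusted p under 0.05).

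Among the lists of related genes, the integrated stress response held the most genes that rose. The integrated stress response, a programme under ATF4, had 27 genes tested, of which 5 rose (18.5%, beside 1.45% of all genes) and 3 fell. The median was 0.07, but below 0 (-0.09 to -0.02) on leaving out control replicate 1 or any ZC3H7B-OE replicate. SESN2, an inhibitor of mTORC1, had labelled shares of 28.6%, 29.4% and 29.2% in control and 37.0%, 39.1% and 37.5% in ZC3H7B-OE (log2 odds 0.57, SE 0.10, edgeR adjusted p = 5.93e-07). Its labelled reads were 184 ± 24.8 and 203 ± 6.27 CPM and its unlabelled reads 449 ± 52.5 and 333 ± 23.4. ATF3, a transcription factor, also rose (0.42, SE 0.12), though both of its parts were lower: labelled reads went from 163 ± 18.6 to 84.6 ± 11.9 CPM and unlabelled reads from 442 ± 40.8 to 171 ± 8.81. Its shares of 22.8%, 28.2% and 30.1% in control and 30.5%, 36.0% and 32.6% in ZC3H7B-OE lay close together, and its call was lost in 2 fits that left out 1 library (adjusted p up to 0.26), with a log2 odds ratio of 0.26 without control replicate 1. The other 3 that rose, named after their values were seen, were TRIB3 (0.39), PPP1R15A (0.67) and STC2 (0.23). PSAT1, of serine synthesis, was the most firmly called of those that fell (-0.50, SE 0.09), with XPOT (-0.43) and SLC7A1 (-0.26) beside it; with TMM 0 of the list fell and 7 rose, and PSAT1 was at -0.23 (edgeR adjusted p = 0.0866) and SLC7A1 at 0.01.

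In other stress lists most calls on the odds as counted were downwards, but with TMM 1 fell and 4 rose among p53 targets, 1 fell and 4 rose among endoplasmic reticulum chaperones, and 0 fell and 3 rose among immediate early genes. Of 23 cytosolic heat shock proteins and chaperones 6 fell (26.1%, not matched for depth) and 0 rose (0 at an unadjusted p under 0.05), with a median of -0.33 (-0.22 without control replicate 3 or ZC3H7B-OE replicate 2), though with TMM 0 fell and 1 rose. HSPA4, of the HSP110 family, had shares of 53.5%, 53.7% and 50.8% against 40.4%, 44.2% and 43.8% (log2 odds -0.58, SE 0.12), and ST13, a cochaperone of HSP70, was at -0.61 (SE 0.13). Of 15 endoplasmic reticulum chaperones 3 fell and 0 rose (1 at an unadjusted p under 0.05), with DNAJC3 at -0.68 (SE 0.12) and the oxidase ERO1L at -0.59 (SE 0.19), a call lost in 4 of the 6 fits without 1 library (adjusted p up to 0.195). Of 17 p53 targets 4 fell and 1 rose: CCNG1, cyclin G1, went from 51.8%, 59.7% and 48.8% to 35.2%, 32.3% and 18.6% (log2 odds -1.50, SE 0.28), TNFRSF10B, a death receptor, was at -0.41 (SE 0.09), and the 1 that rose, named after its values were seen, was BBC3 (0.89), the proapoptotic protein PUMA. Immediate early genes and other short-lived mRNAs had 2 of 39 that fell and 1 that rose, with SPRED2 at -0.67 (SE 0.19, lost in 2 fits without 1 library, adjusted p up to 0.187) and ATF3 above. Of 11 NRF2 antioxidant genes 1 fell and 0 rose (0 at an unadjusted p under 0.05), GSR, glutathione reductase, at -0.99 (SE 0.22), and of 17 hypoxia targets 2 fell and 0 rose (0 at an unadjusted p under 0.05), LOX at -1.42 (SE 0.48, lost in 5 of 6 fits without 1 library, adjusted p up to 0.0989) and ERO1L.

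In the machinery of mRNA decay the genes called fell, at shares of 8.33% to 19.0% of the genes tested in a list, beside 10.3% of all genes. That holds for the odds as counted: with TMM 1 gene rose in each of these lists, or 2 for the exosome and SKI complex, and 0 or 1 fell. CCR4-NOT and the other deadenylation genes, 16 in all, had 2 that fell and 0 that rose (0 at an unadjusted p under 0.05): the deadenylases CNOT7 (log2 odds -0.49, SE 0.14) and CNOT6L (-0.62, SE 0.20), whose calls were lost in 1 and 2 fits without 1 library (adjusted p up to 0.105 and 0.395). CNOT6L was at -0.35 without ZC3H7B-OE replicate 3, and its shares overlapped between the lines. Of 21 genes of decapping and ribosome quality control 4 fell and 0 rose (1 at an unadjusted p under 0.05), with the decapping factor DCP1A at -0.51 (SE 0.11) and the helicase ASCC3 at -1.49 (SE 0.41, lost in 1 fit, adjusted p 0.0566). Nonsense-mediated decay had 2 of 12 that fell, RBM8A of the exon junction complex (-0.57, SE 0.09) and the kinase SMG1 (-0.35, SE 0.12, lost in 4 of 6 fits without 1 library, and 0.02 within GC3 groups), and 0 that rose (1 at an unadjusted p under 0.05). The exosome and SKI complex had 1 of 9, the nuclease DIS3 (-0.60, SE 0.13), and 0 that rose (1 at an unadjusted p under 0.05), and the microRNA pathway 1 of 12, LIN28B (-0.74, SE 0.13), which blocks let-7 maturation, and 0 that rose (0 at an unadjusted p under 0.05). With TMM, CNOT7, CNOT6L, DCP1A, SMG1 and DIS3 were not called and RBM8A, ASCC3 and LIN28B were. Within GC3 groups RBM8A, LIN28B and DCP1A were called and the other 5 were not, ASCC3 among them (edgeR adjusted p = 0.0862). RBM8A and DCP1A had no GC3 value, so they were not set against genes of like GC3 and their calls do not bear on it. Besides ZC3H7B, 3 of 31 CCCH zinc finger genes fell and 0 rose (1 at an unadjusted p under 0.05), with MBNL3, a splicing regulator, at -0.81 (SE 0.23, lost in 2 fits without 1 library, adjusted p up to 0.0886).

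Cell cycle genes called on the odds as counted fell, as did 805 of the 918 genes called in all. Of 32 S phase genes 4 fell and 0 rose (0 at an unadjusted p under 0.05), a share near the 10.3% of all genes, and with TMM 1 fell and 3 rose. TYMS, thymidylate synthase, was at -0.52 (SE 0.17), a call lost in 4 of 6 fits without 1 library (adjusted p up to 0.207). Of 19 mitosis genes 3 fell (15.8%) and 0 rose (0 at an unadjusted p under 0.05), with the checkpoint protein MAD2L1 at -0.80 (SE 0.14) and the kinase AURKA at -0.42 (SE 0.12, lost in 2 fits, adjusted p up to 0.198). Of 18 G1 regulators 3 fell (16.7%) and 0 rose (2 at an unadjusted p under 0.05), but 2 fell and 2 rose relative to the library total and 1 fell and 3 rose with TMM. CDK6 had 59.1%, 59.2% and 56.2% against 44.7%, 41.7% and 38.3% (-0.96, SE 0.15) and the phosphatase CDC25A was at -0.52 (SE 0.09).

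The remaining lists held few calls, apart from the large group of ZNF genes. Of 26 proteasome genes 2 fell, PSMB2 (log2 odds -0.88, SE 0.17) and PSMD10 (-0.75, SE 0.17), and 0 rose (1 at an unadjusted p under 0.05). Of 16 amino acid transporters 3 fell, among them SLC38A1 (-0.50, SE 0.08) and SLC7A2 (-0.73, SE 0.19), and 0 rose (1 at an unadjusted p under 0.05). Of 13 clock genes CLOCK fell (-0.88, SE 0.18) and CSNK1E rose (0.35, SE 0.10, lost in 3 of 6 fits without 1 library, adjusted p up to 0.124). For 8 tubulins, 7 replication-dependent histones, 6 HEK293 markers and 1 leukocyte marker, edgeR called 0, with 0 at an unadjusted p under 0.05; among 3 epithelial markers the junction protein OCLN fell (-1.07, SE 0.22). Of the 247 tested genes named ZNF and a number, mostly zinc finger proteins, 21 fell (8.5%) and 4 rose, with a median of -0.16, as for all genes; with TMM 4 fell and 16 rose, and within GC3 groups 4 fell and 6 rose. ZNF829 had shares of 37.8%, 34.3% and 37.5% against 24.2%, 24.5% and 21.8% (-0.91, SE 0.10), and ZNF664 was at -0.79 (SE 0.10).

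**Figure D3:**
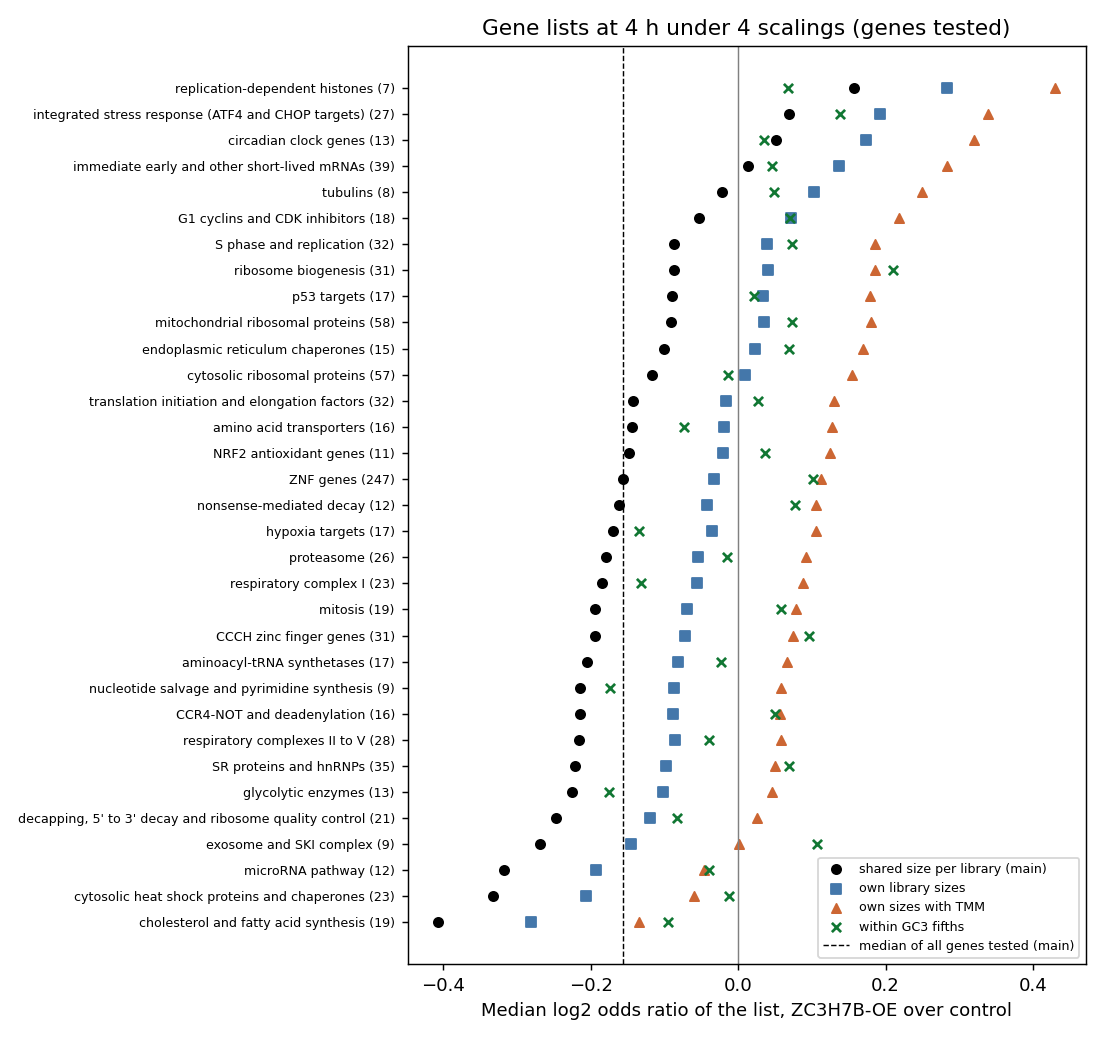
The median log2 odds ratio of each gene list with at least 7 genes tested is plotted under 4 scalings (x axis), with the number of genes tested in brackets and a dashed line at the median of all genes as counted, -0.16. Black circles for the odds as counted run from -0.41 for lipid synthesis to 0.16 for replication-dependent histones, and TMM shifts each list upwards by nearly the same amount while scaling within GC3 groups changes the order of the lists.

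Genes with more codons ending in G or C had higher odds ratios. Genes were placed on the longest coding sequence of GENCODE 29 (GRCh38; the deposited counts are on GRCh37, so only sequence composition was taken from it), which 7371 of the 7804 tested genes matched. The codons at the middle of the coding sequence show what GC3 stands for. They are printed for the 3 genes of lowest GC3 among the 12 lowest odds and the 3 of highest GC3 among the 12 highest, among chromosomes whose sequence may be printed here, with the third base of each codon in capitals.
CD302: ttTgaTaaGtgGacAgaCcaAgaTgaTgaT
SH3D19: acAgaAccAatAaaAgaAcgAgcAgtTcaA
SNAPC1: atGctGaaTgtTcaTgaTcaTtaTcaGaaC
FAM69B: ctGcaGgaGaaGgaGcaCgcCtcCagActG
LRRC20: cgCctCccCagCgaGgtCagTgcCctGcaG
TAOK2: ctGcgGcaGaaGgaGcaGctCcaGcaGtgC
The windows start at codons 112, 520, 180, 212, 88 and 614 in this order and hold G or C in 3, 0, 4, 9, 9 and 10 of the 10 capitals. Over the whole coding sequence GC3 was 37.7%, 39.5% and 39.5% in the first 3 genes and 88.6%, 83.1% and 72.8% in the last 3. These genes were chosen by GC3, so their contrast is an illustration only. Among all 12 lowest GC3 ran from 31.5% to 76.1% in B3GAT2, with a median of 43.7%. Among all 12 highest it ran from 44.0% in RWDD2B to 88.6%, with a median of 64.6%, so the 2 ranges overlapped. The window was moved to the middle after codons 2 to 11 had been seen: there the same genes hold G or C at the third base of 10, 9, 8, 10, 8 and 8 codons, so the start of the coding sequence does not separate them.

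The genes were split into 5 groups of equal size by GC3, group 1 the lowest. From group 1 to group 5 the median log2 odds ratios were -0.34, -0.30, -0.13, -0.02 and 0.02. In these groups 17.0%, 17.4%, 10.0%, 5.43% and 2.99% of genes fell and 0.0678%, 0.543%, 1.29%, 2.37% and 3.05% rose, beside 10.3% and 1.45% of all genes tested. Spearman's rho between GC3 and the log2 odds ratio was 0.311 across 7371 genes of the same 6 libraries, given as a description since genes share libraries and base composition. The median GC3 was 46.5% for genes that fell, 71.2% for genes that rose and 58.2% for all genes tested. For 28 of 31 codons ending in G or C the codon's frequency had a rho above 0, and for 30 of 30 ending in A or T it was below 0. The highest were CCC (0.261) and GCC (0.255) and the lowest ATT (-0.289) and AAT (-0.281).

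Other composition moved with GC3 and could not be told apart from it. The rho was 0.324 for GC of the whole coding sequence, 0.319 for GC of the 3' UTR, -0.283 for its content of T, the base that s4U replaces, and -0.15 for its length, but 0.00237 for coding length. The lines also differed in the share of reads in each GC3 group: group 1 held 18.7% to 20.1% of a control library and 15.5% to 15.8% of a ZC3H7B-OE library, and group 5 held 13.8% to 14.9% and 17.6% to 17.7%. Their part in the difference of the odds was not tested.

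Pooling all reads of a GC3 group put the lines on different sides at the ends of the scale. In group 1 the labelled share was 43.9%, 43.6% and 44.9% in control and 38.1%, 37.8% and 37.4% in ZC3H7B-OE. In group 5 it was 50.5%, 51.2% and 52.1% in control and 53.7%, 52.2% and 52.3% in ZC3H7B-OE. All ZC3H7B-OE libraries were below all control libraries in group 1 and above them in group 5, with mean differences of -6.40 and 1.49 percentage points. The share in group 5 minus that in group 1 was 6.56, 7.59 and 7.22 percentage points in control and 15.6, 14.4 and 15.0 in ZC3H7B-OE, without overlap (two-sided exact permutation p = 0.1, the smallest possible). ZC3H7B itself had a GC3 of 80.9% and fell, so it lay against this order.

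**Figure D4:**
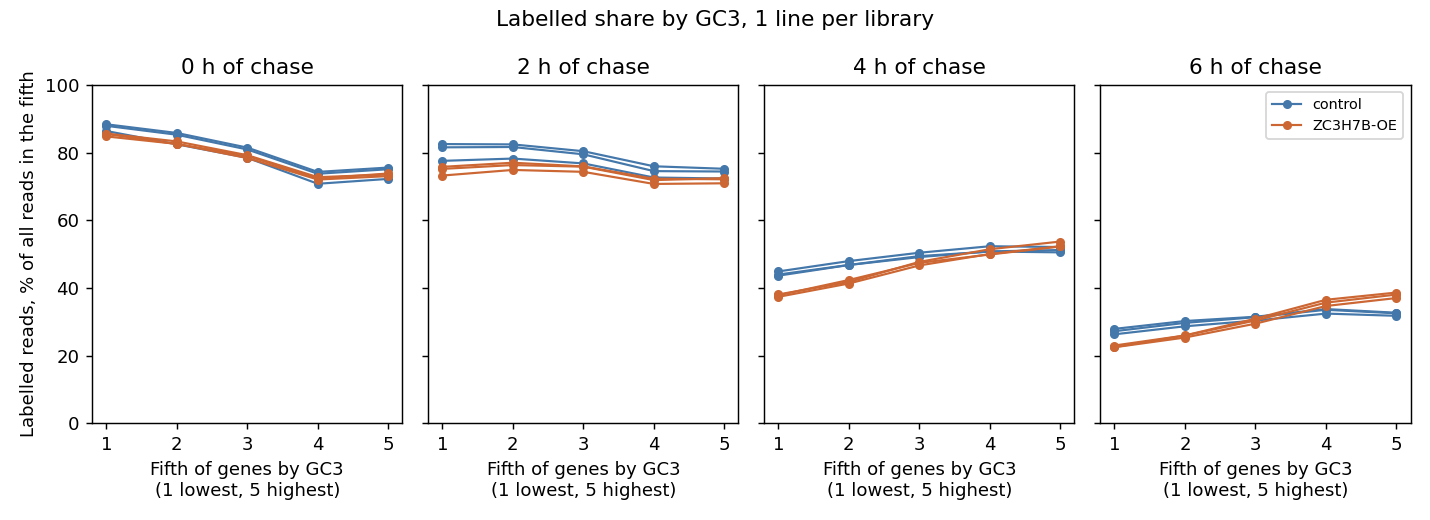
The labelled share of all reads (y axis, percent) in each of 5 groups of genes by GC3 (x axis, 1 lowest) is drawn as 1 line per library at 0, 2, 4 and 6 h of chase (panels), with control in blue and ZC3H7B-OE in orange. At 4 h the ZC3H7B-OE lines climb from 37.7% to 52.8% on average and the control lines from 44.1% to 51.3%, and these means cross between groups 4 and 5.

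In the libraries of other times most genes that fell at 4 h kept their sign, while most that rose did so only at 6 h. At 6 h, 752 of the 803 genes that fell at 4 h and were tested there had the same sign (93.6%, beside 52.7% of all genes tested at both), and 379 of them were called, 47.1% of the 4 h calls and 65.1% of the 582 that fell at 6 h (7.42% of 7848 tested). Of 111 genes that rose at 4 h 105 had the same sign at 6 h (94.6%, beside 47.3%), and 71 were called, 62.8% of the 4 h calls and 14.4% of the 493 that rose at 6 h (6.28%). At 2 h, where 134 of 7121 genes fell (1.88%) and 0 rose (40 at an unadjusted p under 0.05, edgeR), 758 of 793 genes that fell at 4 h had the same sign (95.6%, beside 73.9%), but only 38 of the 113 that rose (33.6%, beside 26.1%). At 0 h, where 19 of 5995 fell (0.317%) and 0 rose (95 at an unadjusted p under 0.05, edgeR), it was 558 of 767 (72.8%, beside 64.3%) and 35 of 108 (32.4%, beside 35.7%). Few of the 805 genes that fell at 4 h were also called lower at the earlier times, 106 at 2 h (13.2%) and 15 at 0 h (1.86%). Yet the median log2 odds ratio of the 793 genes was -0.63 at 2 h and -0.65 at 4 h. That of the 767 genes at 0 h was -0.265. Over all genes tested at both times the median was -0.295 at 2 h and -0.17 at 0 h. Libraries of 0 h and 2 h were shallower than those of 4 h, with 1502068 to 2053311 reads. The part of depth in the lower counts was not tested. The rho between GC3 and the log2 odds ratio was 0.0394 at 0 h, 0.168 at 2 h and 0.395 at 6 h.

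**Figure D5:**
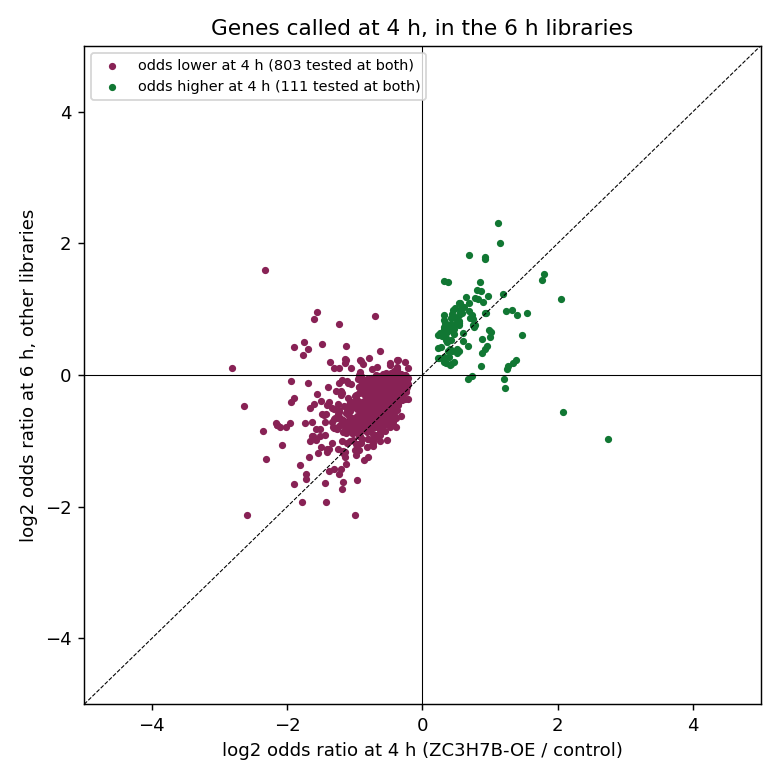
Each point is a gene called at 4 h, with its log2 odds ratio at 4 h on the x axis and in the separate libraries of 6 h on the y axis; the dashed line marks equal values. Of the genes that fell at 4 h 752 of 803 lie below 0 at 6 h, and of those that rose 105 of 111 lie above it.

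Few genes had a difference at 4 h that was distinguishable from that at the start of the chase. In a test of the difference itself (edgeR, 12 libraries), 18 of 6242 genes had a higher line difference at 4 h than at 0 h (0.288%) and 18 a lower one (0.288%). The 36 became 10 to 21 on leaving out ZC3H7B-OE replicate 1 or 2 of 0 h, any control replicate of 4 h, or ZC3H7B-OE replicate 2 or 3 of 4 h. CBX5 was labelled at 95.8%, 93.8% and 92.9% in control and 95.7%, 95.9% and 96.3% in ZC3H7B-OE at 0 h, which overlapped, and at 4 h the lines were apart as given above (difference of log2 odds ratios -1.36, SE 0.21, edgeR adjusted p = 0.000109). ACTB, cytoplasmic actin, went the other way: its shares at 0 h were 83.6%, 83.4% and 82.8% in control and 79.7%, 81.1% and 78.9% in ZC3H7B-OE, and at 4 h 61.3%, 61.2% and 59.8% against 67.0%, 67.0% and 64.8% (0.67, SE 0.11, edgeR adjusted p = 0.00017). ZC3H7B differed at 0 h already, with shares of 76.1%, 77.6% and 90.9% in control and 62.2%, 63.0% and 66.1% in ZC3H7B-OE (log2 odds -1.19, edgeR adjusted p = 0.0187), and its change to 4 h was not called (-0.56, SE 0.25, edgeR adjusted p = 0.388).

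From 4 h to 6 h the called changes were upwards. Of 7543 genes 40 had a higher line difference at 6 h (0.53%) and 0 a lower one by edgeR (98 at an unadjusted p under 0.05). The 40 became 18 to 24 on leaving out replicate 2 or 3 of either line at 4 h, or replicate 2 or 3 of ZC3H7B-OE at 6 h. H2AFX, the histone variant of DNA damage signalling, had shares of 59.5%, 59.9% and 59.2% in control and 66.3%, 64.9% and 62.9% in ZC3H7B-OE at 4 h, and 26.2%, 25.9% and 27.8% against 49.4%, 51.3% and 48.0% at 6 h. The lines were apart at both times and wider apart later (difference of log2 odds ratios 1.11, SE 0.14, edgeR adjusted p = 1.67e-08). Its call at 4 h was lost in 1 fit without 1 library (edgeR adjusted p = 0.0616) and within GC3 groups (0.0965). HMGN2, a nucleosome-binding protein, had shares of 74.8%, 76.4% and 75.3% against 75.4%, 73.2% and 72.0% at 4 h, which overlapped, and 57.1%, 57.4% and 58.6% against 63.5%, 65.2% and 67.7% at 6 h, which did not. With labelled and unlabelled reads scaled to their own totals 11 genes had a changed difference in place of 40.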

How the data were processed

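The series measured labelled and total mRNA by SLAM-seq in 24 libraries of 2 HEK293 lines. RNA was alkylated and poly(A) selected and sequenced as stranded paired-end libraries, per the labels' protocols. The authors deposited 2 tables of read counts per gene, 1 of all reads and 1 of reads with T>C conversions. The submitters' processing notes name fastp and GRCh37. Not given in the sources used here are the aligner, the conversion caller, how many conversions make a read labelled and how reads were counted. A missed conversion counts a labelled read as unlabelled in both lines.

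The deposited counts were used as they stand. Unlabelled reads were all minus T>C reads. Genes with at least 10 reads in each of the 6 libraries and at least 10 labelled and 10 unlabelled reads over them were tested. edgeR 4.0.16 (R 4.3.3) was fitted with labelled and unlabelled counts as separate columns, a term per library and a labelled term per line. The quasi-likelihood test with Benjamini-Hochberg adjustment at 0.05 gave each call. Differences between times used 12 libraries each. Alternatives were TMM and other scalings, filters, DESeq2 1.42.0, limma 3.58.1 (log2 odds with 0.5 added) and fits without 1 library, and the scripts were tested on simulated data. GC3 came from GENCODE 29.

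Of 19692 entries, 450 name several genes and 249 of these were tested. Genes named are ZC3H7B and ZC3H7A, the 12 highest and 12 lowest log2 odds ratios with at least 100 reads in each line and shares that do not overlap, up to 2 called members with the smallest adjusted p of each list, and the 5 smallest adjusted p of each difference between times. Values of 1 gene that this rule names are not reported here. The comparison, lists and named genes were chosen with earlier results of these data known.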

Additional observations from a re-analysis of the deposited data

Results flagged for a closer look

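These genes stand out because the difference between the lines itself differed between chase times (edgeR, 12 libraries for each pair of times). Groups of 3 libraries were not tested for single outlying libraries.

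Between 0 h and 4 h the log2 odds ratio of CBX5 changed by -1.359 (adjusted p = 0.000109), of PTPLAD1 by -0.7333 (0.000289) and of RPS15A by -0.9987 (0.00319). RPS15A, a protein of the small ribosomal subunit, was labelled at 89.2%, 86.7% and 85.8% in control and 91.5%, 90.8% and 91.2% in ZC3H7B-OE at 0 h, and at 50.7%, 48.3% and 47.0% against 45.0%, 40.5% and 39.9% at 4 h, so the order of the lines turned. For ACTB the change was 0.6714 (edgeR adjusted p = 0.00017) and for H2AFX 0.5225 (0.0451). TRIM13, a ubiquitin ligase, changed by 2.796 (edgeR adjusted p = 0.000647): 151 of 167 control reads and 96 of 183 ZC3H7B-OE reads were labelled at 0 h, with shares of 89.3%, 91.7% and 90.6% against 55.6%, 65.2% and 40%. At 4 h its shares of 28.1%, 30.1% and 32.2% and of 26.4%, 23.1% and 29.4% overlapped.

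Between 4 h and 6 h the ratio of H2AFX changed by 1.115 (edgeR adjusted p = 1.67e-08) and that of HMGN2 by 0.6214 (9.54e-06). ARHGDIA changed by 0.634 (edgeR adjusted p = 9.9e-06), with shares at 6 h of 39.1%, 38.7% and 40.05% in control and 52.5%, 51.7% and 54.4% in ZC3H7B-OE. ACTR1A, a dynactin subunit, changed by 1.068 (edgeR adjusted p = 0.00156), from shares that overlapped at 4 h to 56.3%, 53.7% and 53.5% against 64.3%, 68.01% and 70.3% at 6 h. UCK1, a uridine-cytidine kinase, changed by 1.139 (edgeR adjusted p = 0.00193), again from overlap at 4 h, to 51.1%, 50.5% and 46.9% against 66.9%, 63.9% and 70.5%. The H2AFX change from 0 h to 4 h kept its call in only 3 of 17 alternatives (0.47 to 0.58, edgeR or DESeq2 adjusted p up to 0.187). Each of the other changes given here kept its direction and call in all 17 alternatives run for it.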

How the results depend on the processing

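The line difference in labelled odds at 4 h gave 918 calls (805 lower, 113 higher), which became 358 (333 and 25) with 1 estimate of spread over all 24 libraries, 473 (439 and 34) with DESeq2, and 477 (313 and 164, median 0.0025) with scaling within GC3 groups, an alternative chosen after seeing the data. They were 472 and 233 with own library sizes and 232 and 481 with TMM (median 0.12). The cause was not tested. Without 1 library 562 to 705 genes were lower and 63 to 109 higher. Calls with at least 30 reads (841 and 118), no minimum (727 and 90), limma (797 and 115) and entries naming 1 gene (782 and 107) moved less than 1.5 times. SMG1 turned to 0.02262 within GC3 groups; no other gene named by the rule with a call changed sign, but HNRNPA1 (0.02 with TMM, 0.13 within GC3 groups) and SLC7A1 (0.01 with TMM), named after their values were seen, did. From 0 h to 4 h, 36 calls became 19 with all 24 libraries, 8 with DESeq2 and 10 to 46 without 1 library, and from 4 h to 6 h, 40 became 6, 19 and 18 to 41, and 11 with own library sizes. Replicate numbers did not pair the libraries (correlations of deviations -0.0117, -0.016 and -0.000143); with a replicate block 760 fell and 100 rose, and 36 and 43 genes changed between times. Few reads limit the genes at either end of the order, with 101 to 1771 reads in a line.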
